A study of Mus musculus with 22 samples.

Results

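A set of 31 genes of macrophages was followed through RNA-seq libraries of lymphocytes sorted from mouse mammary tumours. The genes were taken by name from knowledge of macrophages, with earlier results of these data known, and all 31 were found among the 37620 entries of the count table. The libraries came from pooled tumours of female PyMT C57BL/6 mice aged 20 to 24 weeks. PyMT mice carry a viral oncogene that is active in mammary epithelium and develop mammary carcinomas. A first set of libraries held TCR-NK1.1+, TCRb+CD8a-NK1.1+, TCRb+CD8a+NK1.1+, TCRb+CD8a+PD1+ and TCRb+CD8a+PD1-NK1.1- cells. A second set held TCRgd+NK1.1- cells, cNK (conventional natural killer) cells, ILC1l cells, named for type 1 innate lymphoid cells, TCRgd+ILTC1 and TCRab+ILTC1 cells, named for type 1 innate-like T cells, and TCRb+CD8a+NK1.1- cells. Every population was represented by 2 libraries, 22 in all. The labels name the markers of most gates, do not spell out the gates of the ILC1l, cNK and ILTC1 cells, and do not say that replicates came from different animals. The p-values therefore measure the spread between libraries, which may be technical.

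Macrophages are phagocytes that live in all tissues and accumulate in mammary carcinomas. Their growth and survival depend on CSF1 acting through the receptor kinase encoded by Csf1r, and their gene programme depends on the transcription factor PU.1, the product of Spi1. They take up dead cells, lipoproteins and antibody-coated particles, degrade them with lysosomal cathepsins, make complement C1q and present peptides on MHC class II molecules. Several of these genes are not exclusive to macrophages: natural killer cells carry the Fc receptor encoded by Fcgr3, B cells carry the one encoded by Fcgr2b and MHC class II, and cathepsins D, B and S are found in many cell types.

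The promoter windows of 3 macrophage genes that lay far above all other libraries in the TCRgd+NK1.1- libraries, and of Ctsd, which was high in every library, are shown for comparison. Each is the 250 bases before the annotated start of the gene, written 5′ to 3′ on the strand of the gene, from RefSeq GRCm38.p6. Capitals mark AGGAAGT or GAGGAA or their reverse complements ACTTCCT and TTCCTC, forms of the core recognised by ETS factors such as PU.1. The 2 motifs can overlap, as in the C1qc window.
Lyz2: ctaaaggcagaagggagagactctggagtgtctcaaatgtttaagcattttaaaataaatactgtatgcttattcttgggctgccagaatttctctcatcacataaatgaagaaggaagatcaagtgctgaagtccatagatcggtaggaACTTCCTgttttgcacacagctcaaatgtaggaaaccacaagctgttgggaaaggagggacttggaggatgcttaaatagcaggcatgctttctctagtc
C1qb: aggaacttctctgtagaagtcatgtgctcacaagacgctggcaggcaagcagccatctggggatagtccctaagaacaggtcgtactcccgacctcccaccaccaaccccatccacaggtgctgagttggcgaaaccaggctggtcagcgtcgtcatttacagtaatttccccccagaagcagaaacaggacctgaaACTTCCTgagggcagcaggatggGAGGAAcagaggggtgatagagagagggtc
C1qc: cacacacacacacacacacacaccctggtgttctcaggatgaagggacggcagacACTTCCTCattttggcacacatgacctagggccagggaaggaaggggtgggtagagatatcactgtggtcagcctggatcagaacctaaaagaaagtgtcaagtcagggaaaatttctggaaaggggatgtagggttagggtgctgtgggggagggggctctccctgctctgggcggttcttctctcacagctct
Ctsd: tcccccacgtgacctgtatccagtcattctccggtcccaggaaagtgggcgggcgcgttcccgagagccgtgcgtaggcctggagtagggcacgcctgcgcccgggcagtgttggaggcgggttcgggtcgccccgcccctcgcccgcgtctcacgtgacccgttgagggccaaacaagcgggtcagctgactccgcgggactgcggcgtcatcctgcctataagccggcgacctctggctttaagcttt
The windows lie at chr10:117282273-117282522, chr4:136886201-136886450, chr4:136892915-136893164 and chr7:142387828-142388077, all on the minus strand. Of the 31 genes, 21 had a window in the table. AGGAAGT or its reverse complement was present in 6 of the 21 (Lyz2, C1qb, C1qc, Fcgr1, Mrc1 and Spp1), 28.6%, against 7.69% of 32851 windows of all genes. GAGGAA or its reverse complement was present in 11 of the 21, 52.4%, against 23.3% of all windows. The printed windows do not stand for all: Ms4a7, Fcgr2b, Mertk, H2-Aa, H2-Eb1 and Gpnmb held neither motif. These genes also lay above all other libraries in both TCRgd+NK1.1- libraries. Spp1, which did not, held both motifs. The matches are a description of the letters and no test was made of them.

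**Figure D1:**
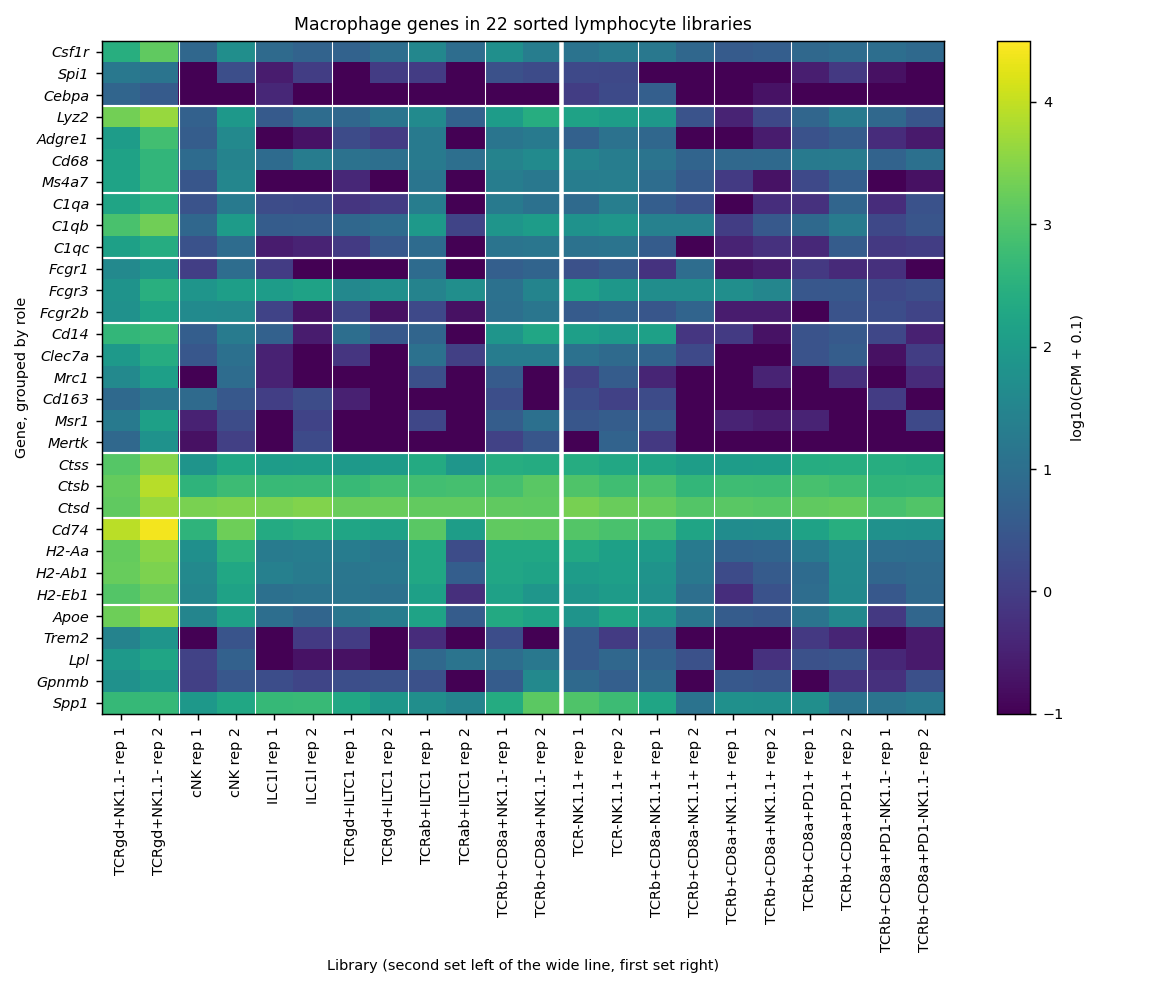
Level of each of the 31 macrophage genes (rows, grouped by role) in each of the 22 libraries (columns, the 2 replicates of a population side by side), as log10 of CPM plus 0.1; CPM are counts per 1000000 scaled within each set. The TCRgd+NK1.1- libraries at the left are the brightest for 30 of the 31 genes by population mean, and Ctsd, Ctsb and Ctss are bright across all columns.

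The TCRgd+NK1.1- libraries stood apart from all others. The 31 genes took 2.6% and 6.26% of all counts in TCRgd+NK1.1- replicates 1 and 2, against 0.158% to 0.747% in the other 20 libraries. Both TCRgd+NK1.1- libraries lay above every other library for 26 of the 31 genes, which 5.37% of the genes tested in the second set did. The exceptions were Cebpa, Fcgr3, Cd163, Ctsd and Spp1. By population mean, 30 genes were highest in TCRgd+NK1.1- cells and 1, Spp1, in TCR-NK1.1+ cells. Levels are given as CPM, counts per 1000000 scaled by TMM within each set, so values of the 2 sets side by side rest on separate scalings. In sorted bulk RNA, more macrophages in a sort and more macrophage RNA per cell cannot be told apart.

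The sorted cells themselves were checked first. Cd3e, a subunit of the T-cell receptor complex, had 830 and 585 CPM in the TCRgd+NK1.1- libraries, against 1264 and 1484 CPM in the TCRgd+ILTC1 libraries. Klrb1c, which encodes NK1.1, had 6.55 and 11.4 CPM in the TCRgd+NK1.1- libraries, against 1177 and 1472 CPM in the TCRgd+ILTC1 libraries. Cd3e was thus present and Klrb1c low, but neither gene shows the gamma delta receptor that the gate names. The 11 T-cell genes found summed to 5111 and 3912 CPM in the TCRgd+NK1.1- libraries, against 1848 to 13797 CPM in the other 20. Among them Trac, of the alpha chain, had 174 and 100 CPM, against 5.29 to 1108 CPM elsewhere. Lck had 666 and 911 CPM, below the lowest other library at 997 CPM. Blk, a kinase of B cells that IL-17-producing gamma delta T cells also express, had 283 and 320 CPM in the TCRgd+NK1.1- libraries and at most 2.12 CPM in any other. The gamma delta constant region gene Trdc is not analysed here.

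Marker genes of other cell types were measured in the same libraries. The 10 erythroid and platelet genes summed to 295 and 117 CPM in the TCRgd+NK1.1- libraries, against 0 to 72.8 CPM in the other 20. The 12 stromal and endothelial genes summed to 1155 and 229 CPM, against 4.34 to 241 CPM elsewhere, and the 15 epithelial genes to 3997 and 2303 CPM, against 75 to 6275 CPM elsewhere. The 12 B-cell genes gave 1333 and 676 CPM, against 180 to 2156 CPM elsewhere. The B-cell and epithelial sums lay inside the range of the other libraries, and all 4 sums were lower in replicate 2 than in replicate 1. The part of these cells in the macrophage gene levels was not tested.

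TCRgd+NK1.1- cells were set against the mean of the other 5 populations of the second set, to ask how far the macrophage genes stood above the level in the lymphocyte sorts made alongside. All 31 genes passed the filter on low counts, Cebpa only through the TCRgd+NK1.1- libraries. In the edgeR quasi-likelihood test (Benjamini-Hochberg over 16828 genes, adjusted p under 0.05) 28 were higher, where 9.28% of all genes tested were. None was lower, where 1.68% of all genes were, and all 31 estimates were positive. Both TCRgd+NK1.1- libraries lay above the 10 others of the second set for 27 of the 31, as for 7.63% of all genes. The median log2 fold change was 5.69 over the 31 genes and 0.16 over all genes tested. The contrast averages the log levels of the 5 populations, so folds differ from a ratio of plain means. For 7 of the genes (Cebpa, Ms4a7, Fcgr1, Mrc1, Cd163, Msr1 and Mertk) at least 1 of the 5 populations had 0 counts in both libraries, and their fitted folds depend on the small count added before taking logs. With those populations held at 3 counts over both libraries the median over the 31 genes was 5.39, and over the other 24 genes the fitted median was 5.22.

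**Figure D2:**
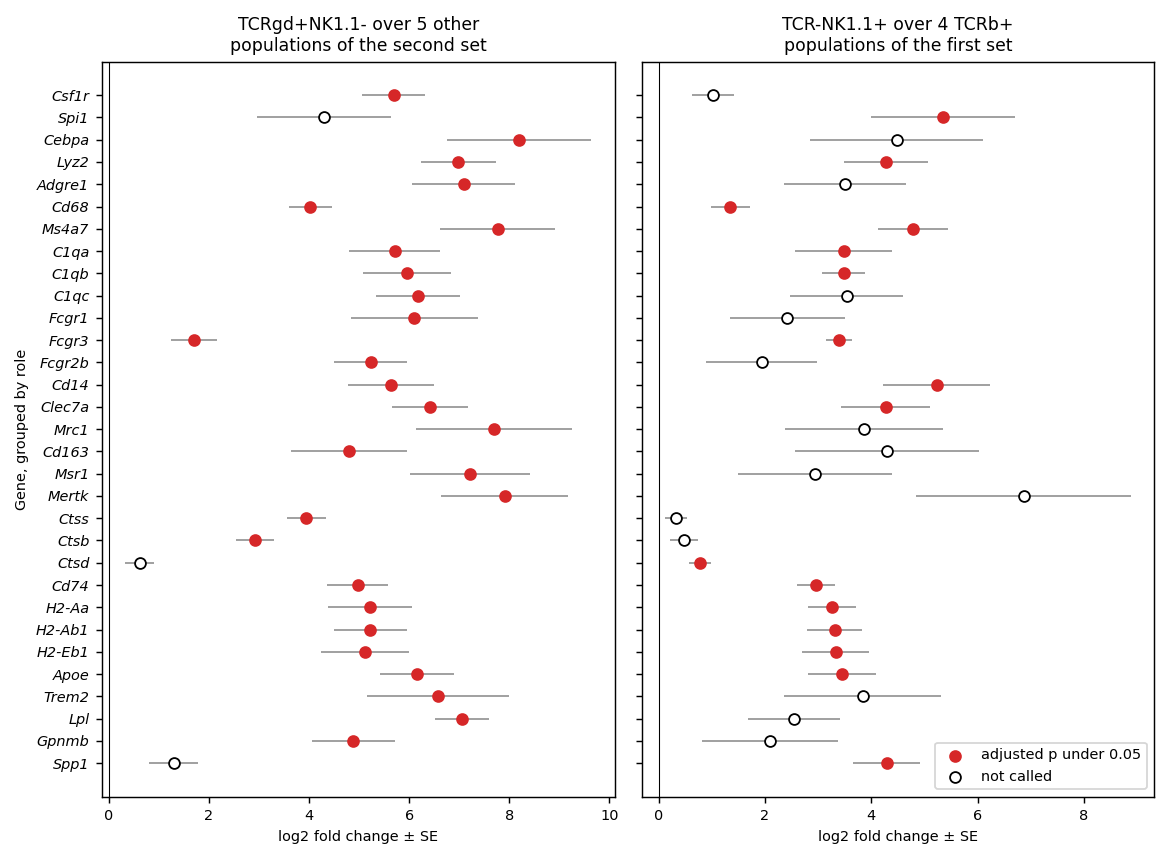
Log2 fold change of each of the 31 genes with its standard error, for TCRgd+NK1.1- cells over the mean of the other 5 populations of the second set (left) and for TCR-NK1.1+ cells over the mean of the 4 TCRb+ populations of the first set (right). Filled points passed an adjusted p of 0.05: 28 genes on the left and 16 on the right; values of genes with a population at 0 counts depend on the small count added in the fit.

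The growth factor receptor and the factors of the lineage were compared first. Csf1r had 283 and 1433 CPM in the TCRgd+NK1.1- libraries, against a lowest, median and highest value of 3.75, 8.88 and 55.5 CPM in the other 20 libraries. The TCRgd+NK1.1- libraries did not overlap with any other, and the log2 fold change over the second set was 5.69 ± 0.63 (SE; adjusted p = 0.00132). Csf1r was the only one of the 3 genes without a library at 0 counts. Spi1 had 15.9 and 12.9 CPM in the TCRgd+NK1.1- libraries, against 0 to 2.26 CPM in the other 20, of which 8 were at 0 counts. This difference, a log2 fold change of 4.29 ± 1.34, did not pass the test (adjusted p = 0.072). Cebpa, which encodes a factor of myeloid differentiation, had 6.23 and 3.68 CPM in the TCRgd+NK1.1- libraries, against 0 in 15 of the other 20 libraries and at most 4.54 CPM, in TCRb+CD8a-NK1.1+ replicate 1. It was higher (adjusted p = 0.0208), although the level of its second library lay inside the range of the first set. In the second set its mean was 0.158 CPM in ILC1l cells and 0 in the cNK, ILTC1 and TCRb+CD8a+NK1.1- cells. Cebpa thus passed the filter only through the TCRgd+NK1.1- libraries and could hardly be called other than higher, so its call adds no support.

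The surface and lysozyme genes were all higher. Lyz2, the macrophage lysozyme, had 2112 and 4523 CPM in the TCRgd+NK1.1- libraries, against 0.25, 7.84 and 269 CPM as the lowest, median and highest of the other libraries. Adgre1, which encodes F4/80, had 109 and 669 CPM, against 0 to 37.9 CPM, the highest in cNK replicate 2. Neither gene overlapped between these libraries and the rest, with log2 fold changes of 6.98 ± 0.75 for Lyz2 (adjusted p = 0.0012) and 7.09 ± 1.03 for Adgre1 (adjusted p = 0.00393). Cd68, a lysosomal glycoprotein, had 145 and 408 CPM in the TCRgd+NK1.1- libraries, against 5.63 to 42.3 CPM elsewhere, and was above 0 in every library. Ms4a7, a macrophage membrane protein, had 157 and 409 CPM, against 0 to 33.8 CPM.

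The 3 chains of C1q, the recognition molecule of the classical complement pathway, rose together. C1qb had 821 and 2063 CPM in the TCRgd+NK1.1- libraries, against 0.917 to 110 CPM in the other 20. C1qa had 163 and 311 CPM, against 0 to 22.5 CPM, and C1qc had 134 and 251 CPM, against 0 to 14.1 CPM. No C1q gene overlapped with another library, and the log2 fold changes were 5.71 ± 0.91 for C1qa, 5.95 ± 0.88 for C1qb and 6.18 ± 0.84 for C1qc (adjusted p = 0.00527, 0.00402 and 0.00298). Levels per kilobase of exon, which allow genes to be set side by side, were 755 and 1896 CPM per kb for C1qb, against 157 and 300 for C1qa and 69.3 and 130 for C1qc in the same 2 libraries. C1qb and C1qc both hold ACTTCCT in the windows printed above, and C1qa had no window. The part of the motif in these levels was not tested. Of the other 10 complement genes tested, 7 were higher, among them C4b at 41.6 and 183 CPM, against at most 38.5 CPM elsewhere.

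The Fc receptors differed among themselves. Fcgr1, the high-affinity IgG receptor, had 39.3 and 78.1 CPM in the TCRgd+NK1.1- libraries, against 0 to 9.33 CPM in the other 20 (log2 6.10 ± 1.27, adjusted p = 0.0176). Fcgr2b, the inhibitory receptor, had 61.7 and 152 CPM, against 0 to 42.5 CPM, with the 2 highest other libraries being the cNK replicates at 42.5 and 39.4 CPM. Both genes lay above all other libraries. Fcgr3, the activating receptor that natural killer cells share, had 68.0 and 288 CPM in the TCRgd+NK1.1- libraries, against 1.56, 50.4 and 150 CPM as the lowest, median and highest of the rest. The groups overlapped, the log2 fold change was 1.70 ± 0.46 (adjusted p = 0.0438), and without TCRgd+NK1.1- replicate 2 it was 0.29 with an adjusted p of 0.835. Fcgr2b and Fcgr3 are similar in sequence, so that reads may have been split between them or lost. Of the other 7 Fc receptor and adaptor genes tested 4 were higher, and 2, the adaptor genes Tyrobp and Fcer1g, were lower.

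All 6 pattern recognition and scavenger receptors were higher. Cd14, the lipopolysaccharide co-receptor, had 433 and 511 CPM in the TCRgd+NK1.1- libraries, against 0 to 177 CPM elsewhere (log2 5.63 ± 0.86, adjusted p = 0.00463). Clec7a, the beta-glucan receptor dectin-1, had 96.0 and 252 CPM, against 0 to 20.3 CPM (log2 6.42 ± 0.76, adjusted p = 0.00165). Both genes had their highest other level in a TCRb+CD8a+NK1.1- library. Mrc1, the mannose receptor, had 39.3 and 127 CPM in the TCRgd+NK1.1- libraries, against at most 8.71 CPM and 0 counts in 10 of the other 20. Msr1, a receptor for modified lipoproteins, had 17.2 and 132 CPM, against at most 10.8 CPM, and Mertk, a receptor for dying cells, had 7.19 and 64.5 CPM, against at most 5.44 CPM and 0 counts in 13 of 20. Cd163, the haemoglobin scavenger receptor, was low, at 7.41 and 14.1 CPM, and overlapped with cNK replicate 1 at 7.86 CPM. Without TCRgd+NK1.1- replicate 2 the calls of Mrc1, Msr1, Mertk, Cd163, Fcgr1, Fcgr3 and Trem2 were lost, and 21 of the 31 genes were called higher. With each of the 12 libraries left out in turn, Fcgr3 kept its call in 5 of 12 fits and Cd163 in 6.

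The 3 cathepsins had log2 fold changes of 0.62 to 3.94, and 2 of them were higher. Ctss, the cathepsin that trims the MHC class II invariant chain, had 1111 and 3236 CPM in the TCRgd+NK1.1- libraries, against 69.1, 179 and 273 CPM as the lowest, median and highest elsewhere (log2 3.94 ± 0.39, adjusted p = 0.000999). Ctsb had 1609 and 8012 CPM, against 383 to 1256 CPM (log2 2.91 ± 0.38, adjusted p = 0.00243). Both were clear of the other libraries. Ctsd had 1463 and 4421 CPM, against 803, 1537 and 2902 CPM as the lowest, median and highest elsewhere, and its log2 fold change of 0.62 ± 0.29 did not pass the test (adjusted p = 0.215). Of the other 14 lysosomal genes tested, all 14 were higher. Lgmn, which encodes legumain, had 382 and 1872 CPM in the TCRgd+NK1.1- libraries, against 0.25 to 116 CPM elsewhere.

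The MHC class II genes carried the largest share of the counts. Cd74, the invariant chain, had 8474 and 25128 CPM in the TCRgd+NK1.1- libraries, against 46.9, 253 and 1964 CPM as the lowest, median and highest elsewhere (log2 4.97 ± 0.61, adjusted p = 0.00188). H2-Aa had 1609 and 3276 CPM, against 1.77 to 347 CPM, H2-Ab1 had 1669 and 2572 CPM, against 1.67 to 188 CPM, and H2-Eb1 had 1042 and 1754 CPM, against 0.417 to 151 CPM. Each of the 4 genes lay above every other library, and their log2 fold changes lay between 4.97 and 5.22. Of the other 9 genes of MHC class II presentation tested 5 were higher and none was lower. Together the 4 genes took 1.37% and 3.13% of all counts in the TCRgd+NK1.1- libraries and at most 0.249%, in cNK replicate 2, in any other.

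Of the lipid-associated genes 4 of 5 were higher. Apoe, the lipoprotein ligand made by macrophages, had 1968 and 4401 CPM in the TCRgd+NK1.1- libraries, against 0.704 to 223 CPM (log2 6.16 ± 0.74, adjusted p = 0.0017). Lpl, lipoprotein lipase, had 95.6 and 168 CPM, against 0 to 15.9 CPM, and had the smallest adjusted p of the set (log2 7.06 ± 0.54, adjusted p = 0.000462). Neither gene overlapped with another library. Trem2, a lipid receptor of macrophages, had 28.9 and 72.9 CPM, against 0 to 3.5 CPM, and Gpnmb, a lysosomal glycoprotein, had 61.2 and 102 CPM, against 0 to 37.9 CPM. Of the other 8 lipid-associated genes tested 4 were higher and none was lower. Spp1, which encodes the secreted protein osteopontin, had 480 and 479 CPM in the TCRgd+NK1.1- libraries, against 12.5, 82.1 and 1276 CPM as the lowest, median and highest elsewhere, and did not pass the test (log2 1.30 ± 0.49, adjusted p = 0.126).

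Wider lists describe which macrophage programmes accompanied the 31 genes in the same comparison. Of 15 genes of alternatively activated and resident macrophages 14 were higher, and of 12 inflammatory genes tested 8 were higher. Of all genes tested 9.28% were higher and 1.68% lower, which also stands beside the list counts of the next paragraph. Some listed genes, such as Lyve1 (0 CPM elsewhere) and Cd209f (at most 0.25 CPM), passed the filter only through the TCRgd+NK1.1- libraries. Such genes could hardly be called other than higher. Retnla, a product of interleukin-4-activated macrophages, had 410 and 28.4 CPM in the TCRgd+NK1.1- libraries, against at most 6.9 CPM elsewhere, and Mgl2, a lectin of the same state, had 43.6 and 30.7 CPM, against at most 6.75 CPM. The interleukin gene Il1a had 49.8 and 113 CPM, against at most 7.28 CPM, and the chemokine gene Cxcl2 had 145 and 83.0 CPM, against at most 27.7 CPM. These 4 genes lay above all other libraries in both replicates.

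Among 7 mammary tumour macrophage genes that are not among the 31, 3 were higher. Vcam1, an adhesion molecule of mammary tumour macrophages, had 87.6 and 810 CPM in the TCRgd+NK1.1- libraries, against at most 29.1 CPM elsewhere (log2 7.36 ± 0.82, adjusted p = 0.00133). Of 12 monocyte genes 4 were higher and 1 was lower. Of 13 tissue remodelling genes 8 were higher, among them the elastase gene Mmp12 at 77.1 and 190 CPM, against at most 16.1 CPM. Of 10 dendritic cell genes tested 2 were higher, and of 7 neutrophil genes 5 were, with S100a8 at 39.8 and 7.5 CPM. Of 14 epithelial genes tested 12 were higher, of 10 stromal and endothelial genes 7, of 6 erythroid and platelet genes 5, and of 11 NK-cell genes none was higher and 6 were lower.

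**Figure D3:**
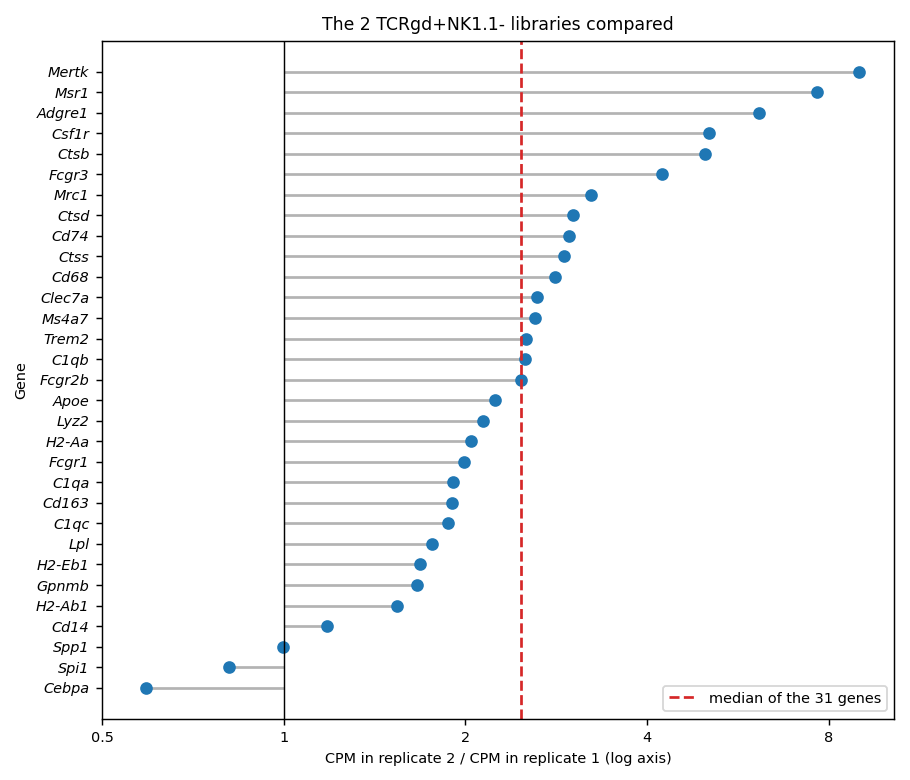
Ratio of the level in TCRgd+NK1.1- replicate 2 to that in replicate 1 for each of the 31 genes (log axis, 1 point per gene). The median ratio is 2.47 and the range runs from 0.591 for Cebpa to 8.97 for Mertk, with 3 genes below 1.

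The 2 TCRgd+NK1.1- libraries were not scaled copies of each other. Replicate 2 had the higher level for 28 of the 31 genes, with a median ratio of 2.47. The share of all genes that did so was not counted. The libraries also differed in depth and in genes detected. Replicate 1 had 8696335 counts and 21446 genes with a count, and replicate 2 had 15035341 counts and 14386 genes. The part of this difference in the ratios, and in values near 0 in replicate 2, was not tested. Ratios were largest for Mertk (8.97), Msr1 (7.66), Adgre1 (6.14), Csf1r (5.06), Ctsb (4.98) and Fcgr3 (4.23). They were between 1.54 and 2.97 for the 4 MHC class II genes and between 1.87 and 2.51 for the C1q genes, and were 1.18 for Cd14, 0.996 for Spp1, 0.813 for Spi1 and 0.591 for Cebpa. Among listed genes that are not members, Stab1 (26.5 CPM in replicate 1 and 429 CPM in replicate 2), Cx3cr1 (92.1 and 1041 CPM), Vcam1, Axl (135 and 675 CPM) and Cd36 (45.1 and 228 CPM) also had the larger value in replicate 2. Retnla, Cd209a (25.7 and 6.95 CPM), S100a9 (46.1 and 0.764 CPM), Col3a1 (283 and 16.2 CPM) and Igkc (834 and 74.7 CPM) had the larger value in replicate 1. These genes were picked after their values were seen, and a difference between 2 libraries has no replicate check.

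TCRgd+NK1.1- cells were then set against single populations. Against TCRgd+ILTC1 cells, which share the receptor but carry NK1.1 transcripts, 10 of the 31 genes were higher (Csf1r, Lyz2, Cd68, Fcgr2b, Clec7a, Ctss, Ctsb, Cd74, Apoe and Lpl), where 0.921% of all genes tested were, and none was lower, where 0.671% were. Both TCRgd+NK1.1- libraries lay above both TCRgd+ILTC1 libraries for 30 of the 31, which 21.5% of all genes did, and no member lay below, as 20.2% of all genes did. Ctsd was the exception. Csf1r had 283 and 1433 CPM in the TCRgd+NK1.1- libraries, against 5.19 and 9.71 CPM in the TCRgd+ILTC1 libraries (log2 6.85 ± 1.28, adjusted p = 0.0352). Cebpa, Fcgr1, Mrc1, Msr1 and Mertk had 0 counts in both TCRgd+ILTC1 libraries, and with 3 counts over these libraries as the limit Mrc1 was at least 722-fold higher and Fcgr1 at least 510-fold higher. The median log2 fold change was 7.14 over the 31 genes, 6.90 with the 5 genes at their limit, and 0.13 over all genes. The count depended on single libraries: it was 0 without TCRgd+ILTC1 replicate 2, 1 without TCRgd+ILTC1 replicate 1, 5 without TCRgd+NK1.1- replicate 2 and 17 without TCRgd+NK1.1- replicate 1.

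Against TCRb+CD8a+NK1.1- cells none of the 31 genes passed the test in edgeR, where 0.0357% of all genes were higher and 0.0416% lower. At an unadjusted p under 0.05 there were 21 of the 31, where 10.3% of all genes were, and DESeq2 called 9 higher, where it called 3.51% of all genes in either direction. Both TCRgd+NK1.1- libraries lay above both TCRb+CD8a+NK1.1- libraries for 30 of the 31 genes, as 18% of all genes did, and none lay below, as 18.1% did, with a median log2 fold change of 3.59 over the 31 genes and 0.14 over all. Lyz2 had 2112 and 4523 CPM in the TCRgd+NK1.1- libraries, against 110 and 269 CPM in the TCRb+CD8a+NK1.1- libraries (log2 4.13 ± 1.29, adjusted p = 0.291), and Spp1 had 480 and 479 CPM, against 246 and 1276 CPM. Without TCRgd+NK1.1- replicate 1, 6 of the 31 genes were called higher.

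Outside TCRgd+NK1.1- cells, the summed level of 6 macrophage genes varied within as well as between populations. A sum of 6 macrophage genes (Lyz2, Csf1r, Adgre1 and the C1q genes) reached 3622 and 9250 CPM in the TCRgd+NK1.1- libraries. It was 283 and 444 CPM in the TCRb+CD8a+NK1.1- libraries and 250 and 260 CPM in the TCR-NK1.1+ libraries. The replicates were far apart in 3 populations: 27.6 and 303 CPM in cNK cells, 210 and 15.5 CPM in TCRab+ILTC1 cells, and 144 and 37.6 CPM in TCRb+CD8a-NK1.1+ cells. The lowest sum was 5.17 CPM, in TCRb+CD8a+NK1.1+ replicate 1. TCRab+ILTC1 replicate 2 had 14 of the 31 genes at 0 counts, against 3 in replicate 1 and none in the TCRgd+NK1.1- libraries. It had 13226976 counts and 12866 genes with a count, against 20602715 counts and 16271 genes in replicate 1. The part of depth and detection in these zeros was not tested. A count of 0 allows up to 3 counts, which equal 0.146 to 0.345 CPM depending on the library and cover counting error only.

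Counts of each gene per 1000 counts of the 6-gene sum were also compared. This was done in the 7 libraries outside TCRgd+NK1.1- cells with at least 1000 counts of that sum. These were both TCR-NK1.1+ and both TCRb+CD8a+NK1.1- libraries, cNK replicate 2, TCRab+ILTC1 replicate 1 and TCRb+CD8a-NK1.1+ replicate 1. For 23 of the 31 genes the TCRgd+NK1.1- libraries overlapped with those 7, and for 8 both lay below all 7. The share of all genes that did so was not counted. The sum was 3622 and 9250 CPM in the TCRgd+NK1.1- libraries and 144 to 444 CPM in the 7. A gene that lymphocytes also hold would take a smaller value where the sum is larger, so low values are not read as a macrophage state. Whether this held for each of the 8 genes was not tested. C1qb, part of the sum, made 227 and 223 per 1000 in the TCRgd+NK1.1- libraries, against 181 to 417 in the 7, and Apoe, which is not part of it, 543 and 476, against 280 to 788. The genes below all 7 were Cd68, Fcgr3, Clec7a, Ctss, Ctsb, Ctsd, Cd74 and Spp1. Of these, Clec7a had 0 counts in 4 of the 20 libraries outside TCRgd+NK1.1- cells and a median of 1.98 CPM there. Ctsd made 404 and 478 per 1000 in the TCRgd+NK1.1- libraries, against 3126 to 11010 in the 7, Spp1 made 133 and 51.7, against 254 to 3942, and Fcgr3 made 18.8 and 31.1, against 39.9 to 548. No member lay above all 7.

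**Figure D4:**
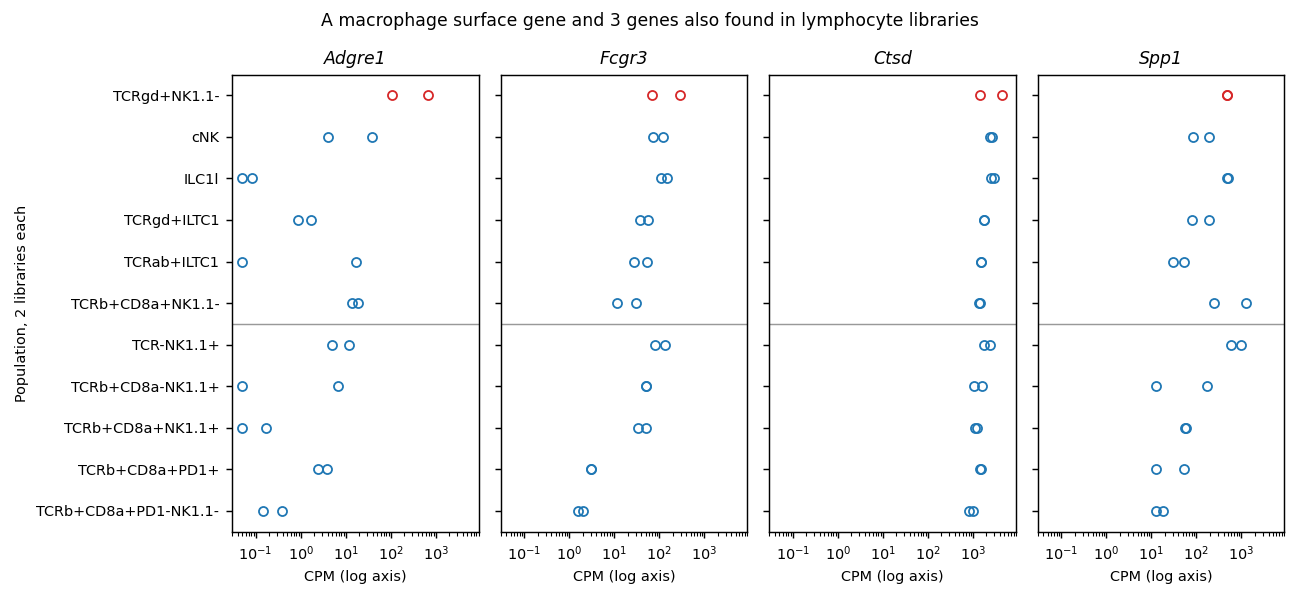
Levels of Adgre1, Fcgr3, Ctsd and Spp1 in both libraries of each of the 11 populations (points, CPM on a log axis, second set above the line, values of 0 drawn at 0.05). Adgre1 is highest in TCRgd+NK1.1- cells, Fcgr3 is at most 3.12 CPM in the last 2 populations and at least 32.9 CPM in the NK1.1+ populations above them, Ctsd stays between 803 and 4421 CPM, and Spp1 is at least 246 CPM in both libraries of the TCRgd+NK1.1-, ILC1l, TCRb+CD8a+NK1.1- and TCR-NK1.1+ cells and lower in all others.

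Fcgr3 was higher in the NK1.1+ populations of the first set. In the first set it had 137 and 81.8 CPM in TCR-NK1.1+ cells, 50.0 and 50.7 CPM in TCRb+CD8a-NK1.1+ cells and 51.1 and 32.9 CPM in TCRb+CD8a+NK1.1+ cells. It had 3.08 and 3.12 CPM in TCRb+CD8a+PD1+ cells and 1.56 and 2.01 CPM in TCRb+CD8a+PD1-NK1.1- cells. No library of the NK1.1+ populations overlapped with the others, which held for Fcgr3 alone of the 31 genes and for 3.68% of all genes. A comparison of the mean of the 3 NK1.1+ populations with that of the other 2 was added after these values were seen. Fcgr3 lay higher in the NK1.1+ mean by a log2 of 4.70 ± 0.29 (adjusted p = 2.98e-05). The comparison was chosen from the same values, so this p-value adds no support for Fcgr3. In the same comparison 4 of the 31 genes were higher (Fcgr3, Ms4a7, C1qb and Spp1), where 4.11% of all genes were, and Ctss was lower at a log2 of -0.78 ± 0.17 (adjusted p = 0.0235), where 3.16% were. Fcgr3 alone of these 5 kept its call when any 1 library was left out. Of 14 epithelial genes tested 7 were higher in the same comparison and none was lower, and their part in the result was not tested. Tyrobp and Fcer1g, adaptors that carry the signal of activating receptors including that of Fcgr3, were higher in NK1.1+ cells as well, by a log2 of 5.71 ± 0.30 and 5.11 ± 0.36 (adjusted p = 1.36e-05 and 6.14e-05).

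TCR-NK1.1+ cells were set against the mean of the 4 TCRb+ populations of the first set. Of the 31 genes 16 were higher, where 7.15% of all genes tested were, and none was lower, where 2.02% were. All 31 estimates were positive, both TCR-NK1.1+ libraries lay above the 8 others for 16 of the 31, as for 7.03% of all genes, and no member lay below, as 6.36% did. The median log2 fold change was 3.45 over the 31 genes, 3.26 with populations at 0 held at 3 counts, and 0.10 over all 15727 genes. The 16 were Spi1, Lyz2, Cd68, Ms4a7, C1qa, C1qb, Fcgr3, Cd14, Clec7a, Ctsd, Cd74, H2-Aa, H2-Ab1, H2-Eb1, Apoe and Spp1. Spi1 passed the filter on low counts only through the TCR-NK1.1+ libraries. Its mean was 1.5 CPM there and at most 0.452 CPM, in TCRb+CD8a+PD1+ cells, in the rest of the set. Spi1 could hardly be called other than higher, so its call adds no support. Some genes not called, among them Mrc1, Cebpa and Trem2, also passed only with these libraries, and their positive estimates add none either. With each of the 10 libraries left out in turn, C1qb, Cd74, Fcgr3, H2-Aa, H2-Ab1, Ms4a7 and Spp1 kept their calls in all 10 fits. Spi1 kept its call in 1 of the 10, Cd68 in 3, Ctsd in 4 and C1qa in 5. C1qb had 63.0 and 77.2 CPM in the TCR-NK1.1+ libraries, against 0.917 to 26.1 CPM in the TCRb+ libraries (log2 3.48 ± 0.40, adjusted p = 0.00158). Cd74 had 1079 and 831 CPM, against 46.9 to 581 CPM (log2 2.96 ± 0.35, adjusted p = 0.00169). Lyz2 had 150 and 118 CPM, against 0.25 to 86.6 CPM (log2 4.28 ± 0.79, adjusted p = 0.0109). In all 3 genes the highest TCRb+ library was TCRb+CD8a-NK1.1+ replicate 1.

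Spp1 had 987 and 586 CPM in the TCR-NK1.1+ libraries, against 12.5 to 173 CPM in the TCRb+ libraries, without overlap (log2 4.29 ± 0.63, adjusted p = 0.00391). Ctsd had 2391 and 1757 CPM, against 803 to 1583 CPM (log2 0.78 ± 0.20, adjusted p = 0.0425). Csf1r, the receptor that defines the lineage, had 12.5 and 17.9 CPM, against 3.75 to 15.9 CPM, overlapped and did not pass the test (adjusted p = 0.138). Epithelial genes moved with this comparison, 13 of the 14 tested being higher, and their sum was 6275 and 3885 CPM in the TCR-NK1.1+ libraries; their part in the result was not tested. Without TCR-NK1.1+ replicate 1, 8 of the 31 genes were called higher, and without TCRb+CD8a-NK1.1+ replicate 1, 25 were.

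**Figure D5:**
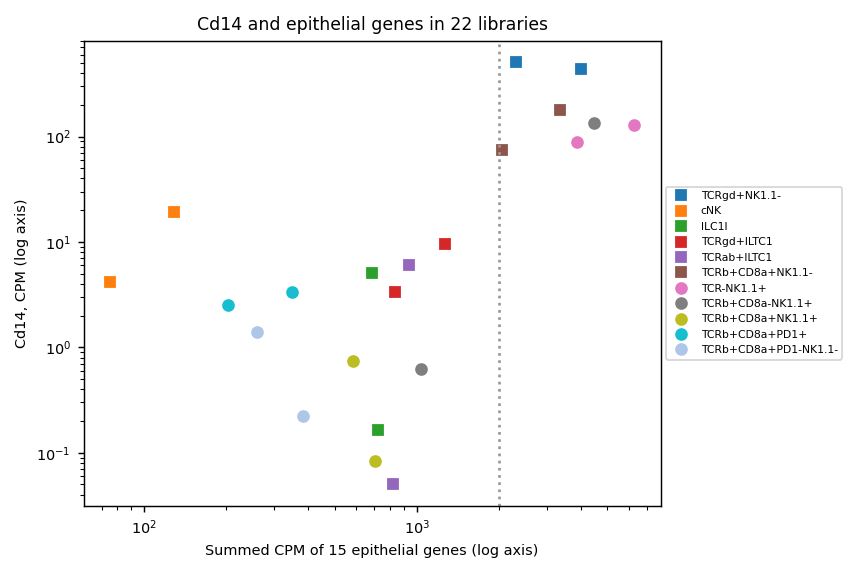
Cd14 against the sum of 15 epithelial genes in each of the 22 libraries (CPM, both axes log; squares second set, circles first set; a value of 0 is drawn at 0.05). Outside the TCRgd+NK1.1- libraries, Cd14 is 74.3 to 177 CPM in the 5 libraries with an epithelial sum above 2000 CPM, the dotted line, and at most 19.2 CPM in the other 15.

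Cd14 was compared with the epithelial genes library by library. Outside TCRgd+NK1.1- cells, 5 libraries had an epithelial sum above 2000 CPM: both TCR-NK1.1+ libraries, both TCRb+CD8a+NK1.1- libraries and TCRb+CD8a-NK1.1+ replicate 1. Cd14 had 128 and 88.3 CPM, 74.3 and 177 CPM, and 134 CPM in these. In the other 15 libraries Cd14 was at most 19.2 CPM, including cNK replicate 2, whose 6-gene macrophage sum of 303 CPM was above those of both TCR-NK1.1+ libraries, and TCRab+ILTC1 replicate 1. Cd14 was not alone in this: 4 of the 31 genes lay higher in all 5 of these libraries than in all other 15. How many of all genes did so was not counted, so the 4 are not read as a result about the 31. For Lyz2 the lowest of the 5 had 86.6 CPM, against at most 83.7 CPM in the 15, and Gpnmb (3.96 against 3.17 CPM) and Msr1 (2.92 against 1.78 CPM) were the others. The limit of 2000 CPM was set after these values were seen, and the part of epithelial cells in the Cd14 level was not tested. Cdh1, which lymphocytes of the ILTC1 and ILC1l sorts also held at 637 to 1235 CPM, makes up most of the epithelial sum in those populations; it was singled out after its values were seen.

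Spp1 and the cathepsins were present where the other macrophage genes were scarce. ILC1l cells had 475 and 497 CPM of Spp1, with a 6-gene macrophage sum of 17.4 and 20.0 CPM, Ms4a7 at 0 counts in both libraries and Adgre1 at 0 and 0.0832 CPM. Ctsd was at 2491 and 2902 CPM in the same libraries and at 2444 and 2699 CPM in cNK cells, above the 1463 CPM of TCRgd+NK1.1- replicate 1. Ctsb and Ctss had no library under 383 and 69.1 CPM. Csf1r was above 0 in every library, at 3.75 to 9.47 CPM where Adgre1 was under 0.5 CPM.

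cNK cells were set against ILC1l cells. None of the 31 genes was called in edgeR, where 0.41% of all genes were higher and 0.606% lower; 11 of the 31 had an unadjusted p under 0.05, where 10.4% of all genes had. DESeq2 called 6 higher, where it called 4.93% of all genes in either direction. The median log2 fold change was 2.20 over the 31 genes and -0.03 over all genes. Both cNK libraries lay above both ILC1l libraries for 15 of the 31 genes, as 26% of all genes did, and Spp1 lay below, as 27.3% did, at 83.8 and 191 CPM in cNK cells and 475 and 497 CPM in ILC1l cells. Fcgr2b had 42.5 and 39.4 CPM in the cNK libraries, against 1.18 and 0.0832 CPM in the ILC1l libraries (log2 5.98 ± 1.45, adjusted p = 0.111). Cd74 had 376 and 1964 CPM, against 225 and 285 CPM. The B-cell list summed to 2156 and 1183 CPM in the cNK libraries, against 731 and 809 CPM in the ILC1l libraries, with Igkc at 1785 and 917 CPM, against 12.8 and 14.4 CPM. The part of B cells in the Fcgr2b and Cd74 levels was not tested.

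TCRb+CD8a+PD1+ cells were set against TCRb+CD8a+PD1-NK1.1- cells. None of the 31 genes was called in edgeR, where 0.184% of all genes were higher and 0.267% lower; 12 of the 31 had an unadjusted p under 0.05, where 6.77% of all genes had. DESeq2 called 3 higher, where it called 2.36% of all genes in either direction. Both PD1+ libraries lay above both PD1-NK1.1- libraries for 17 of the 31 genes, as 18% of all genes did, with a median log2 fold change of 1.23 over the 31 genes and 0.00 over all. Cd74 had 148 and 281 CPM in the PD1+ libraries, against 60.4 and 58.5 CPM in the PD1-NK1.1- libraries (log2 1.85 ± 0.52, adjusted p = 0.297). C1qb had 7.63 and 19.0 CPM, against 1.49 and 2.75 CPM (adjusted p = 0.166), and Apoe had 12.9 and 37.3 CPM, against 0.704 and 6.54 CPM (adjusted p = 0.541). The libraries of these 3 genes did not overlap, but the differences did not pass the test over all genes.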

How the data were processed

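Lymphocytes were sorted from pooled, digested tumours and cDNA was amplified with a SMARTer kit, per the labels' protocols. The values are raw counts for each gene, deposited by the authors and made with BWA 0.7.5a, Picard and HTSeq, per the submitters' processing notes, which name the builds mm9 and NCBIM37 without their roles. Neither the use of strand in counting nor its other settings are stated there. Of 37620 entries, 32897 (99.02% of counts) matched a gene symbol of GRCm38 annotation. Totals were 8696335 to 20602715 counts per library. Titles spelled ILC1I and ILC1l were read as 1 population.

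Counts were fitted with edgeR 4.0.16 in R 4.3.3 (quasi-likelihood test after TMM scaling and filterByExpr; calls at a Benjamini-Hochberg adjusted p under 0.05), separately for the first set (10 libraries, 15727 genes) and the second (12 libraries, 16828 genes), with 1 mean per population. The sets follow how the labels name the populations. A standard error is the log2 fold change divided by the root of F. DESeq2 1.42.0, RLE scaling, no filter, 1 library left out, the replicate number as a block and all 22 libraries in 1 fit were alternatives. The edgeR fits were tested on simulated data, where the share of false calls was somewhat above the nominal level and small changes were mostly missed. Tables and figures used Python 3.11.15, pandas 2.3.3 and matplotlib 3.10.9. Promoter windows came from RefSeq GRCm38.p6. Exon lengths came from GENCODE annotation of GRCm38, which may differ from that used for counting. Limits from a count of 0 leave out PCR duplication.

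The 31 genes, the 21 lists and the comparisons were chosen with earlier results of these data known. From each list, up to 3 called genes each way were eligible to be named, by size of change among genes with at least 20 CPM in the higher group and no overlap, and not all of them are printed; other listed genes were chosen after their values were seen. The lists share genes with each other and with the 31. Similar genes (Fcgr2b and Fcgr3, the MHC class II genes) may have shared or lost reads. Some results of listed genes are not reported here.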

Additional observations from a re-analysis of the deposited data

How the results depend on the processing

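The number of the 31 genes called higher in TCRgd+NK1.1- cells over the other 5 populations stayed between 26 and 31 under RLE scaling, DESeq2, no filter, the block and a joint fit, and between 21 and 29 with 1 library left out, while all genes called numbered 1844, 3817 without the filter and 1258 to 2386 with a library left out. In all comparisons and alternatives run, no member called in edgeR's fit changed sign. Over TCRgd+ILTC1 cells, 10 members and 268 genes were called; DESeq2 gave 26 and 1700, no filter 28 and 1786, a joint fit of all populations 18 and 626, and leaving out a library 0 to 17 members and 7 to 804 genes. Over TCRb+CD8a+NK1.1- cells, 0 members and 13 genes were called; RLE scaling gave 6 genes, DESeq2 9 members and 591 genes, no filter 25 and 621, a joint fit 4 and 151, and leaving out a library 0 to 6 members and 2 to 449 genes. For cNK over ILC1l cells, 171 genes were called; DESeq2 gave 829 genes and 6 members, no filter 787 genes, 17 members higher and 1 lower, a joint fit 327 genes and 1 member, the fit without TCRgd+NK1.1- libraries (chosen after seeing the data) 357 genes, and leaving out a library 34 to 79 genes. For TCR-NK1.1+ over TCRb+ cells, 1441 genes and 16 members were called; no filter gave 3126 genes, and leaving out a library 294 to 3043 genes and 8 to 25 members. For PD1+ over PD1-NK1.1- cells, 71 genes were called; DESeq2 gave 371 genes and 3 members, no filter 397 and 8, a joint fit 45 genes, and leaving out a library 14 to 30 genes. For the NK1.1 comparison, 1144 genes were called; DESeq2 gave 2272 genes, no filter 2099 genes and 11 members higher, a joint fit 2 members higher and 0 lower, and leaving out a library 575 to 1758 genes, 1 to 8 members higher and 0 to 1 lower. The cause was not tested. With the 6-gene sum as the denominator 13 members had a larger share in TCRgd+NK1.1- replicate 2 than in replicate 1, and with Csf1r alone 3 had.

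The replicate numbers were not taken as pairs in the main fits. Correlations of replicate differences between populations were 0.05 to 0.23 in the first set, where 8 of 10 passed 0.1. They were -0.04 to 0.12 in the second set, where 1 of 15 did. The main fits of the first set thus leave out a possible shared replicate effect. With the replicate number as a block, 6 members were called over TCRgd+ILTC1 cells, 1 for cNK over ILC1l cells, 125 genes for PD1+ over PD1-NK1.1- cells and 1759 genes for the NK1.1 comparison; other counts stayed within 1.5 times.

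With 2 libraries per population, a test rests on the spread shared over a set, and where 1 library of a population is left out the remaining one is assumed to vary like the others. Genes with few counts outside TCRgd+NK1.1- cells, among them Cebpa, Mertk, Mrc1 and Trem2, have folds that depend on the count added in the fit.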
